A study of Mus musculus with 6 samples.

Results

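The genes described here are the NF-kB transcription factor subunits and the proteins of the IkB family that hold them back, measured in mouse CD4 T cells with and without the proprotein convertase furin. They were taken by gene symbol from the platform annotation as a list of 10 genes, of which 9 had a probe set: the subunits Nfkb2, Rel, Rela and Relb, the classical inhibitors Nfkbia, Nfkbib and Nfkbie, and the atypical nuclear family members Nfkbid and Bcl3. Nfkb1 was not analysed here. These 9 genes carry 16 probe sets, short transcript stretches that the array reads, out of 18193 genes on the array. For each gene the probe set whose mean log2 signal across the 6 arrays was highest was used, and the other 7 served as a check.

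The study asks what the loss of furin does to T cells. Donor mice were on the C57BL/6 strain, aged 10 to 11 weeks, and all carried loxP-flanked Fur alleles (Fur flox/flox). Furin cKO mice (conditional knockout) also carry a Cre recombinase named CD4 cre, which is driven by the Cd4 promoter and acts from thymocyte development on, and control mice, titled WT, do not, so that controls are floxed mice without the Cre. From each genotype there were 3 populations. Activated cells were sorted CD4+CD62L+CD44- naive cells kept in culture for 2 days with anti-CD3 and anti-CD28, coated on the plate at 5 µg/ml of each. Memory cells (CD4+CD62L-CD44+) and regulatory cells (CD4+CD25+FoxP3+) were sorted and used fresh. There was 1 array for each of the 6 combinations, the labels do not say how many animals a sample came from, and so no value has an SD within a group. Signals are MAS5 intensities on a linear scale, and the number of arrays limits their precision.

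NF-kB acts as dimers of Rel family proteins. In resting cells the inhibitors IkB-alpha, IkB-beta and IkB-epsilon keep dimers of RelA and c-Rel in the cytoplasm, and signals such as T cell receptor and CD28 engagement lead, through the IKK kinases, to the destruction of these inhibitors. A slower, non-canonical route runs from receptors of the TNF receptor family through the kinase NIK (Map3k14) to the processing of p100, the product of Nfkb2, which releases p52 together with RelB. Several of these genes are themselves NF-kB targets, so that the pathway refills its own inhibitors and subunits. In CD4 T cells c-Rel is known for its part in activation and in the making of regulatory cells.

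Label markers gave a mixed picture. Cd4 and the T cell receptor complex gene Cd3e were well above the detection floor on all arrays, with lowest signals of 1821 and 1309.7. Il2ra, which encodes CD25, read 3702 and 4277 on the regulatory arrays (Furin cKO, then control) and 627 and 1190.3 on the memory arrays. Foxp3, whose protein marks regulatory cells, went against the labels: its only probe set read 33.8 and 50.4 on the regulatory arrays, around the floor of 47.6, and 1116 and 1358 on the memory arrays. Ikzf2 and Ctla4, other regulatory cell genes, were highest or nearly so on the regulatory arrays, Ikzf2 at 15968 and 13901 against 8213 and 9419 on the memory arrays. The single Furin probe set read 2203 on the memory array labelled Furin cKO and 647 on the memory control array. In activated cells it read 468 on the Furin cKO and 516 on the control array, and in regulatory cells 410.0 and 547. The sources used here do not say where the probe set lies relative to the deleted part, so that it checks neither the deletion nor the labels. The arrays are called by their labels, and every direction rests on them.

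The populations also differed in technical measures. The share of probe sets above the floor was 49.4% to 49.8% on the activated arrays and 62.5% to 67.4% on the fresh arrays, and the hybridisation control bioB averaged 754 to 852 on the activated, 4078 and 4930.3 on the memory and 2213 and 2503 on the regulatory arrays. The beta-actin 3′ to 5′ ratio, which rises as RNA or labelling gets poorer, was 1.22 to 1.24 on the activated, 1.56 and 1.93 on the memory and 1.35 to 1.36 on the regulatory arrays. No source used here says whether the populations were processed on separate occasions, so population and any such occasion cannot be told apart. The share of these measures in the population differences was not tested.

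Activated cells differed from both fresh populations in a split way within the family. Nfkb2, Rel and Nfkbid read higher in activated cells, Relb and Bcl3 read lower, and Rela and the 3 classical inhibitors lay much closer together. In a limma fit of population and genotype over the 6 arrays, 3 members were higher and 2 lower in activated than in memory cells at an adjusted p under 0.05, and the same 3 and 2 in activated than in regulatory cells; both comparisons share the activated arrays. Against memory cells the calls over all 15798 genes were 17.4% higher and 27.1% lower, and against regulatory cells 18.2% higher and 26.7% lower, so 5 calls among 9 members are near the background of 44.5% and 44.9%. The arrays of the populations did not overlap for 7 of 9 members against memory and 8 of 9 against regulatory cells, beside 66.5% and 69.4% of all genes. Markers of other cells differed between the same arrays. For activated over memory cells limma called 15 of 19 myeloid and dendritic cell markers lower and 1 higher (median log2 difference -3.68), and 7 of 9 B cell and 5 of 6 plasma cell markers lower. Against regulatory cells it called 10 of 19, 4 of 9 and 5 of 6 of them lower. Their part in the differences of the members was not tested. The spread in this fit is how far a population difference varied between the genotypes, with 2 residual degrees of freedom.

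**Figure D1:**
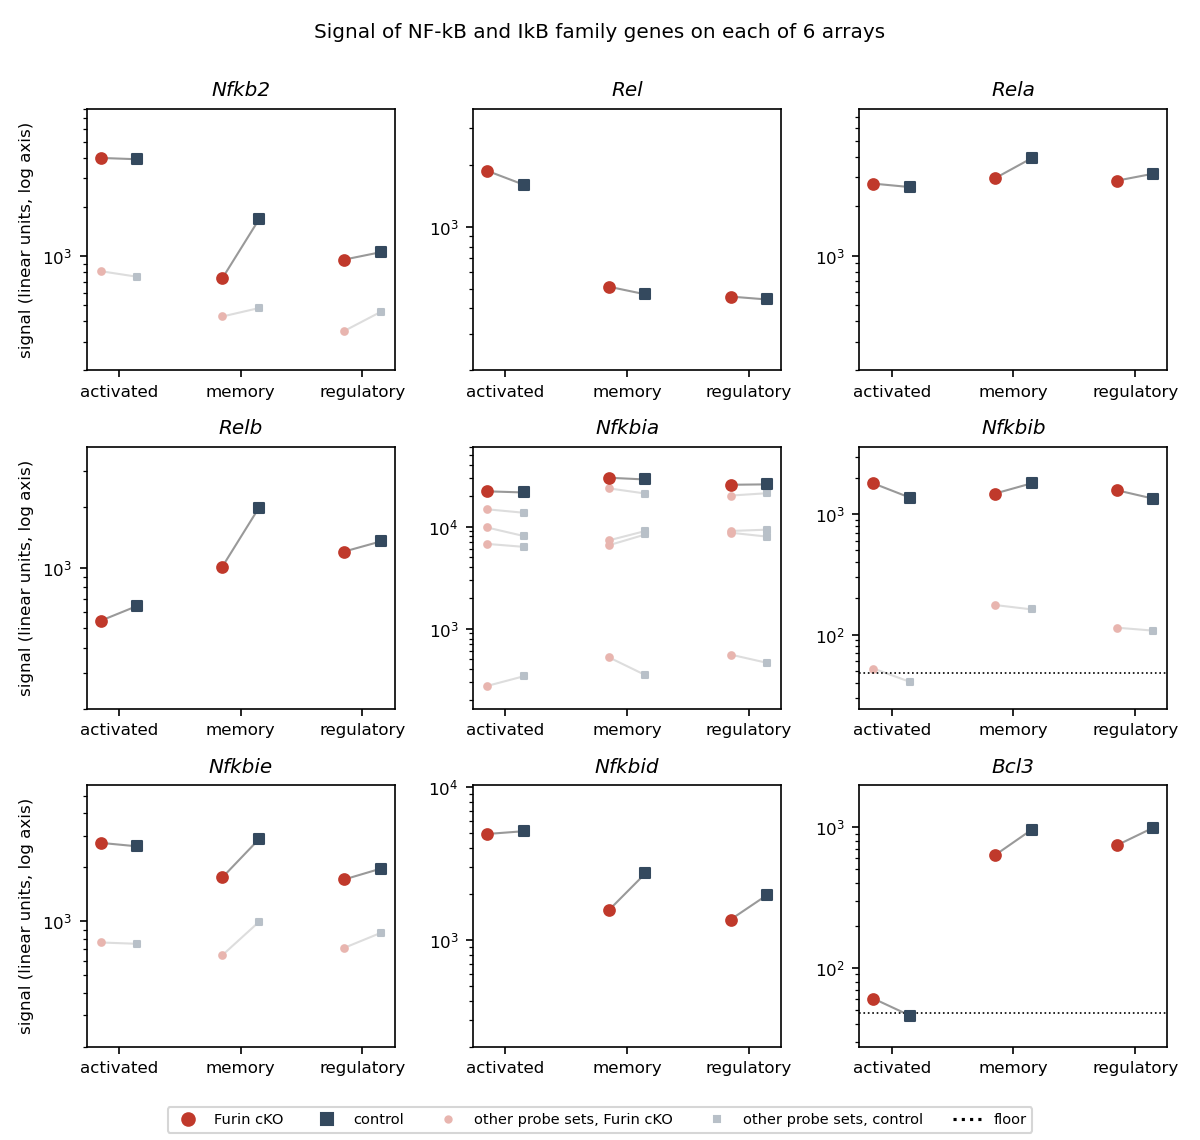
Signal of each family gene on the 6 arrays (y axis, linear MAS5 units drawn on a log axis), by population (x axis), with Furin cKO as red circles to the left of control as dark squares, and lines joining the arrays of a population. Large points are the probe set that stands for the gene, small pale points its other probe sets, and the dotted line is the floor of 47.6. Nfkb2, Rel and Nfkbid are highest in activated cells, Relb and Bcl3 lowest there, and in memory cells most red circles lie below their squares.

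Among the subunits, Rel had the smallest standard error. Rel, which encodes c-Rel, read 1867 on the Furin cKO and 1599 on the control array of activated cells, 510 and 469 in memory cells and 457 and 442 in regulatory cells. Both activated arrays thus read more than 3 times every fresh array. The log2 difference was 1.82 ± 0.14 (SE) for activated over memory cells and 1.94 ± 0.14 for activated over regulatory cells, each with a limma adjusted p of 0.00218. Against memory cells it stayed past the threshold under all 12 alternatives, with a highest adjusted p of 0.0493. Against regulatory cells it was lost without the regulatory control array (adjusted p = 0.0706) or without the regulatory Furin cKO array (adjusted p = 0.0747).

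Nfkb2, the gene of p100 and p52, read 4008 and 3934 in activated cells (Furin cKO, then control), 735 and 1682 in memory cells and 955 and 1060.1 in regulatory cells. The activated arrays agreed closely and lay above all fresh arrays, while the memory arrays lay far apart. The log2 difference was 1.84 ± 0.35 over memory cells (limma adjusted p = 0.0153) and 1.98 ± 0.35 over regulatory cells (limma adjusted p = 0.0129). The second Nfkb2 probe set kept the direction at a smaller size, with differences of 0.78 and 0.97. Over 12 alternatives the Nfkb2 call was kept in 7 against memory and 8 against regulatory cells and lost with some arrays left out (adjusted p by limma up to 0.163 and 0.228). Relb, the partner of p52 in the non-canonical route, went the other way, with 545 and 645 in activated cells, 1011 and 1978 in memory cells and 1199.9 and 1347 in regulatory cells. It was 1.25 ± 0.25 lower on the log2 scale in activated than in memory cells (limma adjusted p = 0.0186) and 1.10 ± 0.25 lower than in regulatory cells (limma adjusted p = 0.027). The first of these calls was kept under 7 of 12 alternatives and the second under 6, being lost with arrays left out, with quantile normalization (adjusted p = 0.0589) or with a lower floor, the 20th percentile (adjusted p = 0.0544). Rela, the gene of the main activating subunit p65, spanned only 2620.0 to 3930.2 over the 6 arrays, and its differences of -0.35 ± 0.18 and -0.17 ± 0.18 did not pass (limma adjusted p = 0.197 and 0.505).

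The atypical family members moved in opposite directions, and only Bcl3 moved further than every measured subunit. Nfkbid encodes IkBNS, a nuclear protein known in the mouse for its part in the induction of Foxp3 and of some cytokines. It read 4931 and 5141 in activated cells, 1564 and 2722 in memory cells and 1359 and 1967 in regulatory cells, with activated arrays above all others. The log2 difference was 1.29 ± 0.23 over memory cells (limma adjusted p = 0.0127) and 1.62 ± 0.23 over regulatory cells (limma adjusted p = 0.00722). Each call was kept under only 5 of 12 alternatives and was lost whichever array was left out, with adjusted p up to 0.14 against memory and 0.163 against regulatory cells. Bcl3, a nuclear cofactor of p50 and p52 dimers, was close to the floor in activated cells, at 60.6 on the Furin cKO array and 45.9, just under the floor, on the control array. It read 633 and 958 in memory cells and 743 and 992 in regulatory cells. Within the Furin cKO genotype Bcl3 was 10.4-fold lower in activated than in memory cells and 12.3-fold lower than in regulatory cells, and within controls at least 20.1-fold and at least 20.8-fold lower. The limma adjusted p was 0.00191 against memory and 0.00204 against regulatory cells, and over 12 alternatives the calls were kept in 7 and 10, with adjusted p up to 0.0661 and 0.0916. Bcl3 showed the largest population difference of the 9 members, and its single probe set leaves it without a check.

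The classical inhibitors did not pass the test in any population comparison, although Nfkbia and Nfkbib did under some alternatives. Nfkbia, which encodes IkB-alpha and is a textbook NF-kB target, read 22147 and 21597 in activated cells, 30099 and 28936 in memory cells and 25680.1 and 25918 in regulatory cells. These signals lay at or above percentile 99.5 of all probe sets on every array. The differences were -0.43 ± 0.14 over memory cells (limma adjusted p = 0.0647) and -0.24 ± 0.14 over regulatory cells (limma adjusted p = 0.24). Their sign turned to 0.98 and 0.75 with quantile normalization, past the threshold (limma adjusted p = 0.00719 and 0.0134), so no direction can be given for Nfkbia. With the floor at percentile 60 or a variance trend it passed as lower than in memory cells (adjusted p = 0.0267 and 0.0209). Its 4 other probe sets differed too: for activated over memory cells they ranged from -0.65 to 0.27. Nfkbib (IkB-beta) ranged from 1341.6 to 1802 over the 6 arrays with overlapping populations, and its dim second probe set was 1.76 lower on the log2 scale in activated than in memory cells. Averaged over both probe sets, Nfkbib passed as lower against memory and regulatory cells (limma adjusted p = 0.0104 and 0.0446). Nfkbie (IkB-epsilon) read 2741 and 2621 in activated cells, 1759.7 and 2872 in memory cells and 1713 and 1968 in regulatory cells, with differences of 0.25 ± 0.23 and 0.55 ± 0.23 that did not pass.

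**Figure D2:**
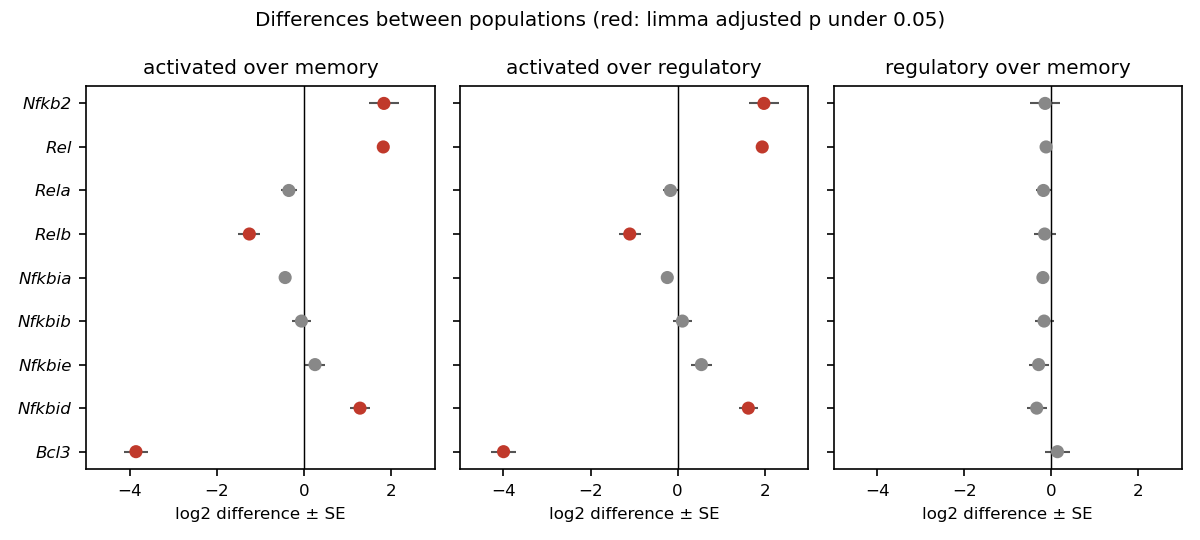
Log2 difference (x axis) of each family gene (y axis) for activated over memory, activated over regulatory and regulatory over memory cells, with bars for the standard error of the limma fit over 6 arrays and red points for an adjusted p under 0.05. Nfkb2, Rel and Nfkbid lie right of 0 and Relb and Bcl3 left of 0 in the first 2 panels, whereas all 9 genes lie within 0.34 of 0 in the third.

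Between the fresh populations no member of the family passed the test. For regulatory over memory cells 0 of 9 members passed the limma test, and 0 had an unadjusted p under 0.05. Over all genes 0.386% were called, 0.057% higher and 0.329% lower, and 3365 of 15798 had an unadjusted p under 0.05. The differences ranged from -0.34 ± 0.23 for Nfkbid to 0.14 ± 0.28 for Bcl3. The arrays of the populations did not overlap for 2 of the 9 members, against 44.7% of all genes. In Rel and Nfkbia, which did not overlap, every regulatory array lay below every memory array. The other Nfkbia probe sets gave differences of 0.242, -0.112, 0.311 and 0.034. Its sign also turned with quantile normalization (0.236), so no direction is given for Nfkbia.

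The signals of all genes were shifted between the activated and the fresh arrays. The median log2 difference of all genes was -0.21 for activated over memory and -0.23 for activated over regulatory cells, and 0.00 in both with quantile normalization. Relative to those medians the differences of Nfkb2, Rel and Nfkbid are larger and those of Relb and Bcl3 smaller than the values above. Upward calls made up 39.1% of all calls over memory and 40.5% over regulatory cells, against 51.6% and 55.3% with quantile normalization. Without the regulatory arrays, whose Foxp3 signal was near the floor, 1 member (Rel) was higher and 0 were lower in activated than in memory cells. Without the memory arrays, 2 members (Nfkb2 and Rel) were higher and 2 (Relb and Bcl3) lower in activated than in regulatory cells, while Nfkbid had an adjusted p of 0.0521 by limma.

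The promoters of these genes are shown because members that feed back on their own pathway are known to carry kB sites, the DNA elements that NF-kB dimers bind. RefSeq promoter windows of the GRCm38.p6 build, from 250 bases before to 50 after an annotated start, were matched by symbol for 8 of the 10 listed genes, all but Nfkb1 and Relb, with 12 windows in all. The kB decamer consensus was searched on both strands, and overlapping matches were counted. It was found in at least 1 window of 6 of the 8 genes (Nfkb2, Rel, Nfkbia, Nfkbie, Nfkbid and Bcl3) and in none of Rela and Nfkbib, against 5.14% of 27025 genes. By windows, 8 of 12 held it, against 4.51% of 32851. No motif other than this decamer was searched. A match describes these letters and is no evidence of binding. For each gene but Bcl3, the stretch that holds the matches before 1 annotated start is given from 5′ to 3′ on the gene's strand, with the decamers in capitals.
Nfkb2: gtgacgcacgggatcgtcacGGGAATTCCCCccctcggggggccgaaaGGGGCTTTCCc
Rel: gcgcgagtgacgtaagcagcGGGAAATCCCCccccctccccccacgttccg
Nfkbid: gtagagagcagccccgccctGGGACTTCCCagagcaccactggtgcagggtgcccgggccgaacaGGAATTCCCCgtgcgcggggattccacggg
Nfkbia: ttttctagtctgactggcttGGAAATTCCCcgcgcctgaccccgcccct
Nfkbie: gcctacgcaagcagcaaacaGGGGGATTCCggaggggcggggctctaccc
The stretch of Nfkb2 is chr19:46304678-46304736 on the plus strand, and its matches begin 39, 38 and 11 bases before the first of 3 annotated starts. The windows of the other Nfkb2 starts also hold matches, and they are not printed. That of Rel is chr11:23771031-23771081 on the minus strand, with overlapping matches 92 and 91 bases before the start. That of Nfkbid is chr7:30422160-30422254 on the plus strand, beside the second of 3 annotated starts, with matches 226 and 181 bases before it. The windows of the other Nfkbid starts hold 0 matches. The stretches of Nfkbia and Nfkbie are chr12:55492648-55492696 on the minus strand and chr17:45555574-45555623 on the plus strand, with 1 match each, 29 and 106 bases before the start. The genes with a match thus include the 3 that were higher in activated cells (Nfkb2, Rel and Nfkbid), Bcl3, which was lower, and the inhibitors Nfkbia and Nfkbie, which did not pass.

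Other genes of the pathway moved in both directions between activated and fresh cells. Among the upstream kinases and adaptors, 21 of 25 listed genes were measured. Compared with memory cells 4 were higher and 9 lower, and compared with regulatory cells 2 were higher and 9 lower, with list medians of -0.41 and -0.52. Over all genes 17.4% were higher and 27.1% lower against memory and 18.2% higher and 26.7% lower against regulatory cells, at medians of -0.21 and -0.23. Map3k14, the NIK kinase gene of the non-canonical route, was lower in activated than in memory cells by 4.62-fold (limma adjusted p = 0.00468), with 142 and 109 in activated cells against 476 and 689. Traf5, a TNF receptor adaptor gene, was 2.93-fold and the paracaspase gene Malt1 2.89-fold lower than in memory cells, whereas Map3k7, the gene of the kinase TAK1, was 3.65-fold higher (limma adjusted p = 0.00213 to 0.00324). Against regulatory cells the largest differences were in Ikbke (4.31-fold lower), Traf5 (3.72-fold lower), Malt1 (3.24-fold lower) and Map3k14 (2.62-fold lower), by limma adjusted p of 0.00275, 0.00247, 0.00258 and 0.0152.

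Among genes listed as negative regulators outside the 10 family genes, 17 of 18 were measured. Beside the same shares of all genes (27.1% and 26.7% lower), 2 were higher and 9 lower in activated than in memory cells. Against regulatory cells 2 were higher and 7 lower. The higher ones were Tnfaip3, which encodes the ubiquitin-editing enzyme A20, and Otulin, a deubiquitinase of linear chains, in both comparisons. Tnfaip3 read 6276 and 5420.2 in activated cells against 2840 and 3841 in memory and 2762 and 2574 in regulatory cells (limma adjusted p = 0.0388 and 0.0162). Both activated arrays lay above all fresh arrays. Nlrc3, Usp18, Nlrc5 and Pdlim2 had the largest decreases against memory cells, 48.8-fold, 5.71-fold, 2.91-fold and 2.52-fold by limma (adjusted p = 0.00163 to 0.00439). In activated cells Nlrc3 read only 59.8 and 49.5, just above the floor of 47.6, which limits the precision of its fold.

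Target genes of NF-kB went both ways. Of 46 listed, 40 were measured, of which 13 were higher and 11 lower in activated than in memory cells, and 13 higher and 8 lower than in regulatory cells. The lower ones are near the shares over all genes, 27.1% and 26.7%, and the higher ones stand beside 17.4% and 18.2%. Among those above the floor on all arrays compared with memory cells, the largest were Ccl5 (84.7-fold lower), Ltb, the lymphotoxin beta gene (33.4-fold lower), Ccl3 (22.3-fold higher) and Il2 (14.7-fold higher). Ltb read 929.6 and 904 in activated cells against 28958 and 32347 in memory cells. The list thus held genes with large changes on both sides, at medians of 0.09 and -0.14.

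Within the populations, the genotype differences of all 9 members were further from 0 in memory than in regulatory cells. Those of all genes were also spread wider in memory cells (scaled median absolute deviation 0.475 against 0.33). On the memory array labelled Furin cKO, Nfkb2, Relb, Nfkbid, Nfkbie and Bcl3 read at least 1.5-fold lower than on the control array, and Rel and Nfkbia read about the same. In activated cells 0 members differed by 1.5-fold, and in regulatory cells 0 did, with Nfkbid nearest. These are comparisons of 1 array with 1 array, so no p-value is given and a fold describes these arrays. Over all genes, 12.4% were at least 1.5-fold lower and 13.7% at least 1.5-fold higher in memory cells, 2.51% and 2.21% in activated cells, and 7.76% and 9.61% in regulatory cells.

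**Figure D3:**
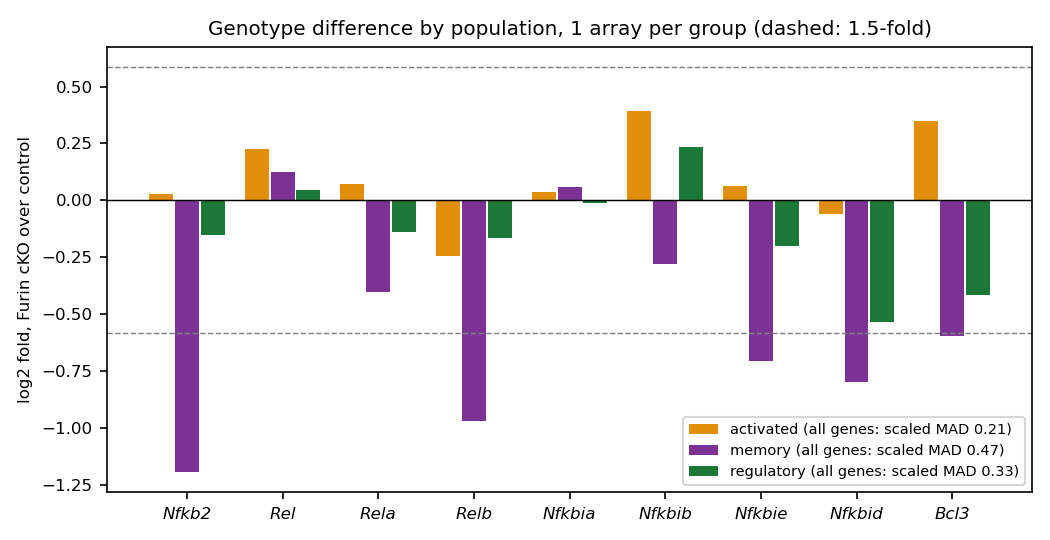
Log2 fold of Furin cKO over control (y axis) for each family gene (x axis) in activated, memory and regulatory cells, 1 array per group, with dashed lines at 1.5-fold. The 5 bars below the lower dashed line are all of memory cells: Nfkb2, Relb, Nfkbie, Nfkbid and Bcl3.

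In memory cells 7 of 9 members had a log2 fold below 0, beside 50.7% of all genes. Of the 9, 5 were at least 1.5-fold lower against 12.4% of 14226 genes measured. Nfkb2 read 735 on the array labelled Furin cKO and 1682 on the control array, a log2 fold of -1.20, lower than in all but 2.1% of genes. The second Nfkb2 probe set read 428 against 482, a log2 fold of -0.17, and the mean of both probe sets gave -0.68. Relb read 1011 against 1978, a log2 fold of -0.97, below all but 4.0% of genes. Nfkb2 and Relb are the subunits of the non-canonical route, and a change of that route as such was not tested.

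Nfkbid read 1564 against 2722 in memory cells (1.74-fold lower), Nfkbie 1759.7 against 2872 (1.63-fold lower) and Bcl3 633 against 958 (1.51-fold lower). Both Nfkbie probe sets went the same way, the other at 649 against 994. Bcl3 lay just past the fold used and fell short of it with quantile normalization, where 4 members remained past it. Rela read 2969 against 3930.2 and Nfkbib 1481 against 1802, log2 folds of -0.41 and -0.28, with the dim second Nfkbib probe set on the other side at 0.12. Rel read 510 against 469 and Nfkbia 30099 against 28936, log2 folds of 0.12 and 0.06. Of the 4 other Nfkbia probe sets 2 were below 0, at -0.35 and -0.31, and 2 above, at 0.58 and 0.17. The median of the 9 members was -0.60, against -0.01 over all genes with a scaled median absolute deviation of 0.47.

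Markers of other cell types moved on the same memory arrays. Of 19 myeloid and dendritic cell markers, all of which were measured, 17 read lower on the array labelled Furin cKO. For 13 the difference was at least 1.5-fold (all genes 50.7% lower and 12.4% at least 1.5-fold lower). Their median log2 fold was -0.75. Their summed signal was 42911 on that array and 84927 on the control array, against 14700 to 20014 on the 4 other arrays, and only Itgam was under the floor, on the control array. On the activated arrays the sum is mostly Irf8 (9084 and 5927) and Ccr7 (8502 and 6369.9), genes that T cells also express, while 9 of 19 markers on the Furin cKO and 8 on the control array were under the floor, so the sums do not compare myeloid signal between populations. The brightest were Cd74 (11503 against 22262), H2-Aa (9329 against 18042) and H2-Eb1 (4192 against 9855), genes of antigen presentation. Relb is also known for its expression in dendritic cells, and the part of such cells in the memory difference was not tested. In this bulk RNA fewer cells of a type and less RNA per cell cannot be told apart.

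Other marker lists went differently in memory cells. B cell markers had 6 of 9 measured members at least 1.5-fold higher and 2 lower, with summed signals of 13832 on the array labelled Furin cKO and 16366 on the control array, where Pax5 and Ebf1 were under the floor. Ighm alone gave 9365 and 12987 of those sums. Granulocyte markers had 6 of 9 higher and 1 lower, with sums of 8239 and 2306, and plasma cell markers 2 of 6 higher, with sums of 26649 and 13578. CD8 and NK cell markers had 1 of 6 higher and 1 lower, near the shares of all genes, with sums of 4651 and 4955. The beta-actin 3′ to 5′ ratio was 1.56 on the array labelled Furin cKO and 1.93 on the control array. Their part in the result was not tested.

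In regulatory cells most members read lower on the Furin cKO array, none by 1.5-fold. Of the 9 members 7 had a log2 fold below 0, against 51.9% of all genes, with a median of -0.15, against -0.015 for all genes, and 0 reached 1.5-fold. Nfkbid read 1359 on the Furin cKO and 1967 on the control array, 1.45-fold lower, with 9.2% of 14575 genes lower still. Bcl3 read 743 against 992, 1.33-fold lower, and Nfkbie 1713 against 1968. Nfkb2, at 955 against 1060.1, and Relb, at 1199.9 against 1347, differed by less than the scaled median absolute deviation of all genes, 0.33. Myeloid and dendritic cell markers summed to 15076 on the Furin cKO and 15658 on the control array, so their total was nearly the same on these arrays. Of 18 measured, 2 were at least 1.5-fold higher and 1 lower, near the shares of all genes, 9.61% and 7.76%. Granulocyte markers were at least 1.5-fold higher for 5 of 7 measured and lower for 1, beside the same shares, with sums of 3045 and 1602.

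The genes with a log2 fold below 0 in both fresh populations were Nfkb2, Rela, Relb, Nfkbie, Nfkbid and Bcl3. All 9 members lay further from 0 in memory than in regulatory cells, where all genes were also spread less widely. With quantile normalization this order was lost for Nfkbib (-0.264 in memory, 0.29 in regulatory cells) and Nfkbia (-0.017 and 0.03). The second Nfkb2 probe set also went against it (-0.171 and -0.389). With 1 array per group the difference between the populations' genotype effects was not tested.

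In activated cells every member read within 1.5-fold on both arrays. Nfkb2 read 4008 on the Furin cKO and 3934 on the control array, Rela 2751 and 2620.0, Nfkbie 2741 and 2621, and Nfkbid 4931 and 5141. The members furthest from 0 were Nfkbib, at 1798 and 1369.7 (1.31-fold higher), and Bcl3, at least 1.27-fold higher at a signal near the floor. Rel was 1.17-fold higher and Relb 1.18-fold lower. The median log2 fold was 0.07, against -0.01 for all genes with a scaled median absolute deviation of 0.21. Of 11 myeloid and dendritic cell markers measured on these arrays, 1 (Irf8) was at least 1.5-fold higher and 0 lower (all genes 2.21% and 2.51%).

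**Figure D4:**
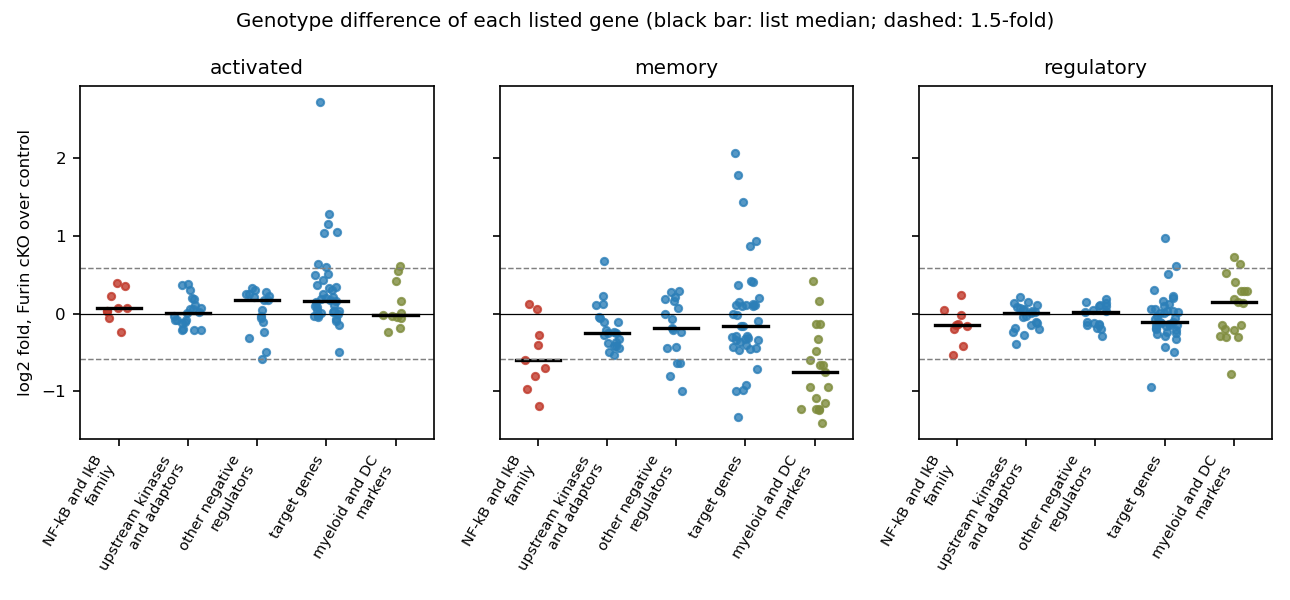
Log2 fold of Furin cKO over control (y axis) of each measured gene of 5 lists (x axis) in activated, memory and regulatory cells, with black bars for list medians and dashed lines at 1.5-fold. In memory cells the median is -0.60 for the NF-kB and IkB family and -0.75 for the markers of myeloid and dendritic cells (DC), while in activated cells single target genes lie far above 0.

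The rest of the pathway was read in memory cells from the same arrays. Upstream kinases and adaptors had 17 of 21 members below 0, beside 50.7% of all genes, at a median of -0.25 against -0.007. At least 1.5-fold lower were 0 and higher 1 (all genes 12.4% and 13.7%), the TAK1 adaptor gene Tab1 (626 against 393). Of 17 genes listed as negative regulators 4 were at least 1.5-fold lower and 0 higher. They were Zc3h12a, the regnase 1 gene (199 against 397), Tnip2 (145 against 253), Nfkbiz (1892 against 2955) and Nlrc3 (2128 against 3307). Nfkbiz is an atypical IkB gene that was not among the 10 family genes listed here. Target genes went both ways, with 5 of 39 at least 1.5-fold higher and 5 lower, near the shares of all genes (13.7% and 12.4%). The higher ones were Ifng (4.20-fold), Il2 (3.45-fold), Ccl3 (2.71-fold), Ccl5 (1.91-fold) and Ccl4 (1.82-fold). The lower ones included Cd83 (1546 against 3883), Zc3h12a, Tnfsf11, the RANKL gene (1028 against 2032), and Il2ra.

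In activated cells 7 of 38 target genes were at least 1.5-fold higher and 0 lower on the Furin cKO array, beside 2.21% and 2.51% of all genes, led by Ifng (6.61-fold), Ccl5 (2.44-fold), Ccl3 (2.23-fold) and Csf2 (2.07-fold), while 0 of 9 family members, 0 of 21 upstream genes and 0 of 17 negative regulators reached 1.5-fold. Several of these targets, Ifng among them, also have other activators in T cells. In regulatory cells 2 of 39 targets were higher and 1 lower (all genes 9.61% and 7.76%), the last Ccl3 at 50.9 against 98.5.

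Across the 3 populations together, the limma fit called 0 of 9 members for genotype, 0 of them also at an unadjusted p under 0.05, and it called 0% of 15798 genes, of which 461 had an unadjusted p under 0.05. Nfkbid had the smallest unadjusted p by limma, 0.0603, with a log2 difference of -0.46 ± 0.18 for Furin cKO over control and a value below 0 in 3 of 3 populations (adjusted p = 0.824). Relb was next at -0.46 ± 0.21, also below 0 in 3 of 3 populations (limma adjusted p = 0.824), and Rel, at 0.13 ± 0.12, was the only member above 0 in all 3. The error in this test comes from the scatter of the genotype difference among the populations. It is no measure of the scatter among animals.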

How the data were processed

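Total RNA extracted with Trizol was labelled as biotinylated cRNA and hybridised to Affymetrix 3′ arrays, per the labels' protocols. The deposited values are linear intensities. The submitters' processing notes name MAS5, and no source used here gives its version or settings. With the highest and lowest 2% of probe sets trimmed, each of the 6 arrays had a mean of 500.0, so the authors' scaling equalises average brightness only. The table holds 45101 probe sets, 64 of them controls. Of the others, 34958 carry 1 symbol, 932 several and 9147 none, and only the first were used; Entrez identifiers of 34754 matched a RefSeq table (GRCm38.p6) and 0 symbols changed.

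Signals under the pooled 40th percentile (47.6) were set to that value, and log2 was then taken. A gene under it on both arrays of a genotype comparison was left out there; a fold against such a signal is written as "at least". Population differences were fitted with limma 3.58.1 in R 4.3.3 (population and genotype as factors, empirical Bayes, Benjamini-Hochberg over the 15798 genes that exceeded the floor on at least 1 array). Genes named are the 10 listed, Furin, label markers, the brightest markers of other cells, and up to 4 genes per pathway list with the largest called differences above the floor, with exceptions named to describe a count. The members, lists and alternatives were chosen with earlier results of these data known. Alternatives were quantile normalization, floors at the 20th and 60th percentiles, averaging all probe sets of a gene, a variance trend, and leaving out arrays.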

Additional observations from a re-analysis of the deposited data

How the results depend on the processing

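Within populations, the median of the members and the counts past 1.5-fold stayed close to the values above (medians of 0.05 to 0.08 in activated, -0.60 to -0.58 in memory and -0.17 to -0.15 in regulatory cells) under quantile normalization, both floors and the mean of probe sets, with 4 members lower in memory cells under quantile normalization. Single genes moved by less than the spread of all genes in 106 cases and by more in 1, Nfkb2 in memory cells with the mean of its probe sets (-0.68). The population calls were less stable. For activated over regulatory cells 1 member was lower with quantile normalization and 1 with a floor at the 20th percentile, against 2. Leaving out 1 array at a time, with 1 residual degree of freedom, gave 1 to 2 members higher and 0 to 1 lower for activated over memory cells, and 0 to 2 higher and 0 to 2 lower for activated over regulatory cells; fewer arrays leave less to estimate the spread from. Without both regulatory arrays, an alternative chosen after seeing the data, 1 was higher and 0 were lower over memory cells. In those fits the lone array is assumed to vary like the others. Signs of Nfkbia turned with quantile normalization (0.98 over memory, 0.75 over regulatory cells), and that of Nfkbib over regulatory cells with the mean of its probe sets (-0.52, from its dim probe set). The cause of the Nfkbia turn was not tested. Of the single population and genotype differences, 345 kept call and direction, 43 lost the call, 3 gained it (Nfkbia and Nfkbib over memory cells) and 23 changed sign, 20 of them past the threshold in neither fit. Those 20 include Nfkbia for regulatory over memory cells (0.24 with quantile normalization, 0.056 with the mean of probe sets) and for genotype (-0.019 with quantile normalization). The others came with an array left out, where the ranges over arrays were, for activated over memory cells, -0.36 to 0.24 for Nfkbib and -0.066 to 0.57 for Nfkbie; for activated over regulatory cells, -0.10 to 0.32 for Nfkbib and -0.34 to 0.006 for Rela; for regulatory over memory cells, -0.14 to 0.42 for Bcl3, -0.71 to 0.42 for Nfkb2, -0.47 to 0.13 for Nfkbib, -0.61 to 0.027 for Nfkbie, -0.37 to 0.003 for Rela and -0.54 to 0.23 for Relb; and for genotype, -0.024 to 0.31 for Nfkbib. No direction is given for these. No paired analysis was possible because each group has 1 array and the labels number no replicates. Bcl3 in activated cells lies at the floor, which limits its fold.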
